A study of Drosophila erecta with 23 samples.

Results

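The genes of cholinergic transmission were followed through embryogenesis of *Drosophila erecta* by RAMPAGE, which counts capped transcripts at their start sites through the 5' ends of cDNAs. The set comprised 8 genes of the 8948 in the gene table, chosen by their *D. melanogaster* identifiers: Ace (FBgn0000024), ChAT (FBgn0000303), nAChRalpha1 (FBgn0000036), nAChRalpha2 (FBgn0000039), nAChRalpha3 (FBgn0015519), nAChRbeta1 (FBgn0000038), nAChRbeta2 (FBgn0004118) and mAChR-A (FBgn0000037). All 8 listed genes were present. Total RNA came from staged whole embryos of the wild-type strain whose genome is the species' reference, with embryos of a single hour after egg laying in each sample, the first being 0-1 h and the last 22-23 h. This gave 23 libraries, 1 at each hour, with no treatment, no mutant and no replicate of any hour. All libraries of the series were barcoded and then processed together in 1 pool.

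Acetylcholine is the main excitatory transmitter of the insect central nervous system. Choline acetyltransferase (ChAT) makes it in the presynaptic neuron, and acetylcholinesterase (Ace) breaks it down in the synaptic cleft. Fast responses pass through nicotinic receptors (nAChRs), cation channels built of 5 subunits that open when acetylcholine binds, and slower ones through muscarinic receptors such as mAChR-A, which act through G proteins. Transcripts of all these genes are characteristic of differentiated neurons, although neither Ace nor the receptors are confined to cholinergic ones.

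Values are RPM, the reads of a gene scaled to a common library size. Each read marks 1 transcript 5' end, so the values do not scale with transcript length. Hours of highest values are given for RPM as deposited. TMM factors, which make the bulk of genes level between libraries, raise log2 values of late libraries by up to 0.85. They can move these hours later. The median library had 3402363 reads in TSS clusters (TSCs, groups of neighbouring start sites), the shallowest (7-8 h) 142224 and the deepest (0-1 h) 13882184. Intervals given for single libraries are 95% Wilson intervals and cover counting error only. In 3 libraries the values need separate reading. At 7-8 h a count of 0 still allows 21.0 RPM, taking 3 reads as the limit. At 4-5 h and 5-6 h, most of the 8 genes had values unlike those of the flanking libraries, which are given further down. These 3 libraries, and 6-7 h, belong to none of the windows compared below. In whole embryos, more cells of a type and more RNA per cell cannot be told apart, nor can RNA deposited by the mother and RNA made in the embryo.

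Of the 7 genes that were low early, ChAT, the enzyme that defines cholinergic neurons, was nearest to its late level in 11-14 h. It had 0.572, 2.83, 0 and 1.39 RPM in the 4 libraries from 0-1 h to 3-4 h, and 3.74, 7.30 and 17.2 RPM in the 3 from 8-9 h to 10-11 h. At 11-12 h it stood at 55.6 RPM (95% interval 47.3 to 65.3), and the next 2 libraries had 51.3 and 66.1 RPM. The values of 11-14 h were all above every earlier value, 4-5 h included. The highest value was 91.2 RPM at 14-15 h, and from 14-15 h to 22-23 h ChAT lay between 35.7 and 91.2 RPM in no steady order. With TMM factors, its mean in 14-17 h was 79.8% of its mean in 17-23 h.

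Ace, the enzyme that ends the signal, was first well above 0 in the same libraries, but on RPM as deposited its highest value came later. It had 0.572 to 2.96 RPM in the libraries from 0-1 h to 3-4 h, then 4.08, 7.83 and 11.7 RPM from 8-9 h to 10-11 h and 32.7, 27.6 and 46.8 RPM from 11-12 h to 13-14 h. In the last 3 libraries it had 56.9, 87.0 and 91.2 RPM, and its highest value was 103 RPM at 18-19 h. Neighbouring late hours differed by more than counting error, as with 40.2 RPM (interval 31.5 to 51.4) at 17-18 h beside 103 RPM (interval 97.0 to 110) at 18-19 h. The spread between such hours enters the error of the comparisons between windows.

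nAChRbeta1, a non-alpha subunit of nicotinic receptors, moved with the enzymes. It had 3.57, 4.48 and 3.21 RPM from 8-9 h to 10-11 h, then 27.8 RPM (interval 22.1 to 34.9) at 11-12 h. It had 55.4, 55.7 and 65.6 RPM from 14-15 h to 16-17 h, its highest values on RPM as deposited along with 59.2 RPM at 18-19 h. With TMM factors, its mean in 14-17 h was 75.4% of its mean in 17-23 h. At 22-23 h it was at 27.0 RPM (interval 19.6 to 37.2), below all libraries from 14-15 h on.

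The alpha1 and alpha2 subunits, which carry ligand-binding sites, had values of at most 18.3 and 18.2 RPM. nAChRalpha1 had at most 1.13 RPM in any library from 0-1 h to 3-4 h or from 8-9 h to 12-13 h, and 5.01 RPM (interval 3.58 to 7.00) at 13-14 h. From 18-19 h on it lay between 14.6 and 18.3 RPM. nAChRalpha2 had 0.681, 1.06, 1.46 and 0.751 RPM from 8-9 h to 11-12 h and 7.60 RPM at 12-13 h, a value that rests on 8 reads (interval 3.85 to 15.0). Its values alternated from 12-13 h to 16-17 h (7.60, 5.30, 11.9, 4.82 and 12.4 RPM) and lay between 10.2 and 18.2 RPM after that.

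nAChRbeta2, the second beta subunit of the set, was near the limit of detection throughout, with 133 reads in all and 10 libraries at 0. Its first value above 1 RPM was 1.77 RPM at 13-14 h, from 12 reads (interval 1.01 to 3.09). The highest values were 4.62 RPM (16-17 h) and 4.55 RPM (both 15-16 h and 21-22 h), while 22-23 h was at 0.730 RPM, which is 1 read.

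nAChRalpha3 differed from the other 7 genes in that it was present from the first hour. It had 33.6, 39.2, 40.3 and 37.8 RPM from 0-1 h to 3-4 h, in libraries in which each of the other 7 genes had at most 2.96 RPM. It then had 20.4, 21.0 and 23.0 RPM from 8-9 h to 10-11 h. The next values were 9.02 RPM (interval 6.06 to 13.4) in the library of 11-12 h and 8.56 RPM (interval 4.50 to 16.3) in that of 12-13 h. Outside 4-5 h and 7-8 h these were its lowest values, in libraries in which ChAT, Ace and nAChRbeta1 were far above their level of 0-4 h. A second period of high values followed, with a maximum of 67.9 RPM (interval 56.2 to 81.9) at 17-18 h and 39.4 RPM or more in every library after it.

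mAChR-A, the muscarinic receptor, had a single late peak. It had 2.63, 2.85, 4.86 and 7.67 RPM from 11-12 h to 14-15 h, then 14.2, 14.7, 26.4 and 26.3 RPM from 15-16 h to 18-19 h. Each of the 4 later libraries was lower than the one before, the last 3 with 21.1, 17.3 and 12.4 RPM, although neighbouring values overlapped in their counting intervals.

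**Figure D1:**
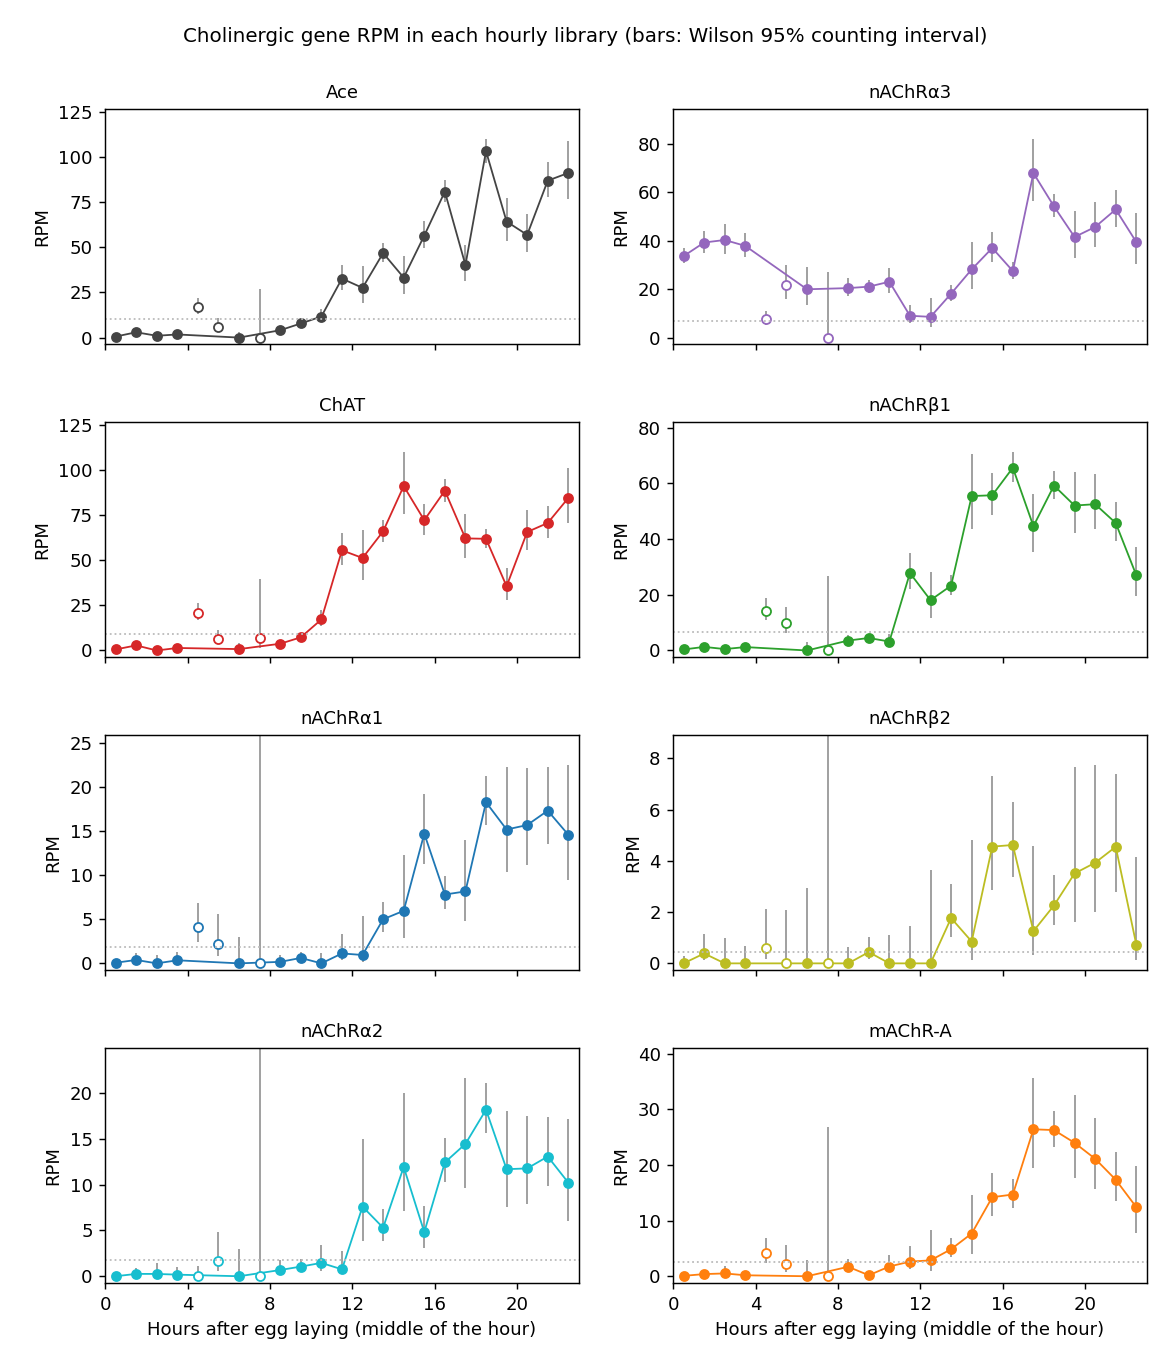
RPM of each of the 8 genes (y axis, own scale per panel) in each hourly library (x axis, hours after egg laying), with 95% Wilson counting intervals as bars. Open points are the libraries of 4-5 h, 5-6 h and 7-8 h, which the line skips and whose bar at 7-8 h can run off the panel, and the dotted line is 10% of the maximum of the other libraries. nAChRalpha3 starts at 33.6 RPM while the other 7 genes start at 0.572 RPM or less.

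The order of onset was taken from a fixed rule, with the first library from which a gene kept at least 10% of its own maximum up to that maximum, over the 20 libraries without 4-5 h, 5-6 h and 7-8 h. By this rule nAChRalpha3 had its onset in the first library, at 0-1 h. ChAT and Ace followed at 10-11 h, nAChRbeta1 at 11-12 h, nAChRalpha2 and mAChR-A at 12-13 h, and nAChRalpha1 and nAChRbeta2 at 13-14 h. By this rule the synthesizing and degrading enzymes came in the same library, 1 h before the beta1 subunit and 2 to 3 h before the other receptors that were absent early.

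Counting error leaves much of this order unresolved. The values were moved to the ends of their intervals, while the threshold stayed at 10% of the observed maximum. The ranges thus leave out the counting error of the maximum itself and are too narrow by that. The onset stayed at 10-11 h for ChAT and at 11-12 h for nAChRbeta1, and at 10-11 h or 11-12 h for Ace. For the rarer genes the range ran from 11-12 h to 13-14 h (nAChRalpha1), from 9-10 h to 12-13 h (nAChRalpha2), from 10-11 h to 13-14 h (mAChR-A) and from 1-2 h to 15-16 h (nAChRbeta2). The onset of mAChR-A rests on 3 reads, at 2.85 RPM with 10% of its maximum at 2.64 RPM. For nAChRalpha3 the range ran from 0-1 h to 13-14 h, because the low values of 11-12 h and 12-13 h had lower bounds under 10% of its maximum. Of the 28 pairs of genes, 2 had ranges that did not touch, ChAT before nAChRbeta1 and ChAT before nAChRalpha1. The lead of ChAT over nAChRbeta1 also depends on the rule. Both were at 8-9 h with a threshold of 2 RPM, and both at 11-12 h without the library of 10-11 h. With a running mean over 3 libraries ChAT stayed ahead, at 9-10 h against 10-11 h.

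The same rule was also applied at 50% of the maximum, on RPM as deposited. Up to its maximum, ChAT kept that level from 11-12 h, nAChRbeta1 from 14-15 h, and mAChR-A and nAChRbeta2 from 15-16 h. nAChRalpha2 did so from 16-17 h, nAChRalpha3 from 17-18 h, and Ace and nAChRalpha1 from 18-19 h. The rule does not look past the maximum, after which lower values occurred. ChAT was below 50% at 19-20 h (35.7 RPM), nAChRbeta1 and mAChR-A at 22-23 h (27.0 and 12.4 RPM), and nAChRbeta2 first at 17-18 h (1.26 RPM). By counting error, again with the maximum held fixed, ChAT ranged from 11-12 h to 13-14 h and overlapped only nAChRbeta2 (12-13 h to 15-16 h). mAChR-A and nAChRalpha1 could begin as early as 14-15 h. For Ace this late hour came from the low value of 40.2 RPM at 17-18 h, since 56.5 RPM at 15-16 h and 80.9 RPM at 16-17 h were already above that level. The first place of ChAT at 50% holds for RPM as deposited. Scaled by TMM factors (1.12 at 14-15 h and 0.554 at 21-22 h), ChAT has its maximum at 21-22 h instead. The low value of 19-20 h (factor 0.580) then lies before that maximum and below 50% of it. The 50% rule was not rerun with TMM factors.

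**Figure D2:**
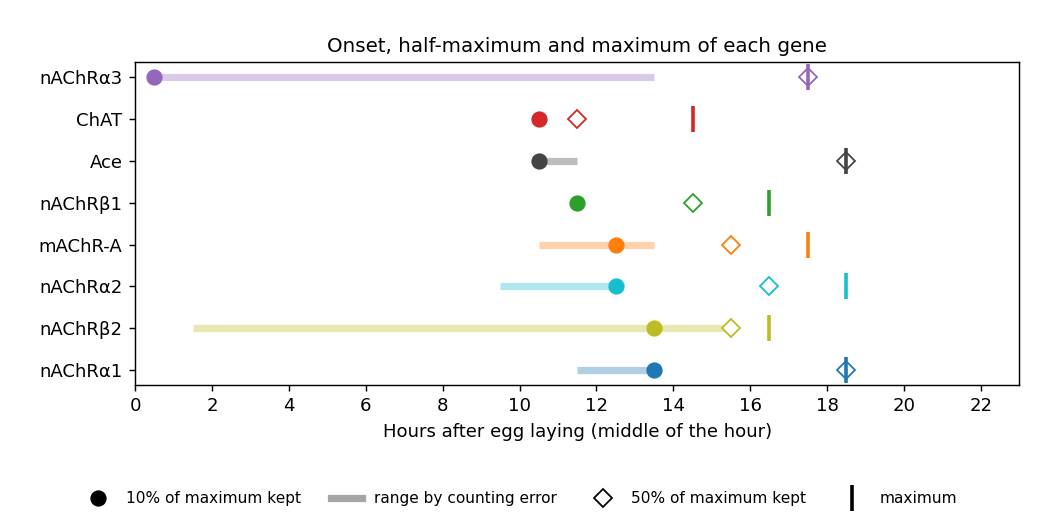
Onset of each gene on the axis of hours after egg laying, with genes in rows. Points mark the first library from which 10% of the maximum was kept, diamonds 50% of the maximum and ticks the maximum. Bars are the range over the ends of the 95% counting intervals, with the maximum held fixed (no bar where it is 1 library). ChAT and Ace have their points at 10-11 h and, on RPM as deposited, ChAT alone has its diamond before 14 h.

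Change over time was tested across all genes with limma on log2(RPM + 1), with a spline of the hour with 4 degrees of freedom whose scatter across hours serves as the error. All 8 genes passed the filter on low counts and were called at an adjusted p under 0.05, as were 89.4% of the 8365 genes tested, so the call itself sets none of the 8 apart. Adjusted p-values by limma ran from 3.87e-09 for mAChR-A to 0.0092 for nAChRalpha3. Of the 8 genes, 7 were called and fitted higher at the end than at the start, against 29.9% of all genes tested. Over all genes this share depends on scaling, with 2502 called higher and 4975 lower on RPM as deposited, and 3306 higher and 3248 lower with TMM factors, which make the bulk of genes level between libraries. nAChRalpha3 was fitted at -0.23 on the log2 scale at the end relative to the start, a sign that turned with TMM scaling (1.04), in the count models and without 7-8 h (0.18). TMM factors raise log2 values of late libraries by up to 0.85. The fitted curves spanned a median of 4.24 log2 units over the 8 genes and 2.78 over all genes tested.

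Consecutive windows of hours were then compared in 1 limma model over 19 libraries, with 3 hourly libraries per window (4 in 0-4 h) and adjustment over the 8182 genes tested. The libraries of a window are consecutive hours from 1 pool of RNA libraries, so that the spread within a window holds real change as well as error. In 8-11 h, against 0-4 h, 3 of the 8 genes rose, ChAT by 2.20 ± 0.44 (SE of the log2 difference, adjusted p = 0.0012), Ace by 1.77 ± 0.43 (adjusted p = 0.0050) and nAChRbeta1 by 1.40 ± 0.32 (adjusted p = 0.0035). Mean levels for ChAT were 9.42 RPM in 8-11 h and 1.20 RPM in 0-4 h. For Ace they were 7.86 RPM in 8-11 h and 1.57 RPM in 0-4 h. For nAChRbeta1 they were 3.76 RPM in 8-11 h and 0.843 RPM in 0-4 h. Over all genes tested, 14.3% were called higher and 8.04% lower at this step. nAChRalpha3 had 21.5 RPM in 8-11 h and 37.7 RPM in 0-4 h, a log2 difference of -0.78 ± 0.29 that missed the threshold (adjusted p = 0.063). The count models called 2 more genes higher here, nAChRalpha2 (adjusted p = 0.022 by edgeR and 0.0085 by DESeq2) and mAChR-A (0.049 and 0.026), and nAChRalpha3 lower (0.047 and 0.014). Of all 8182 genes, edgeR called 1244 higher and 813 lower, and DESeq2 1408 and 1097, against 1168 and 658 by limma.

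The next step involved these 3 genes again. In 11-14 h, against 8-11 h, they rose, ChAT by 2.71 ± 0.47 (adjusted p = 0.0018), nAChRbeta1 by 2.33 ± 0.34 (adjusted p = 0.0010) and Ace by 2.11 ± 0.46 (adjusted p = 0.0071). ChAT averaged 57.7 RPM in 11-14 h and 9.42 RPM in 8-11 h, and nAChRbeta1 23.0 RPM in 11-14 h and 3.76 RPM in 8-11 h. Among all genes tested, 6.15% were called higher and 1.78% lower. The call for Ace rests on the library of 8-9 h, without which its difference was 1.76 with an adjusted p of 0.063. nAChRalpha1 (1.24 ± 0.45, adjusted p = 0.099), nAChRalpha2 (1.16 ± 0.48, adjusted p = 0.16) and mAChR-A (1.08 ± 0.40, adjusted p = 0.11) did not pass. On the recovered reads nAChRalpha1 was called higher at this step by edgeR (2.97, adjusted p = 0.033) and DESeq2 (3.11, adjusted p = 0.0087), and nAChRalpha2 by DESeq2 (2.13, adjusted p = 0.022). Of all genes tested, edgeR called 481 higher here and DESeq2 768, against 503 by limma. nAChRalpha2 was also called by limma without the library of 11-12 h (1.85, adjusted p = 0.0087). nAChRalpha3 stood at 11.9 RPM in 11-14 h and 21.5 RPM in 8-11 h, a log2 difference of -0.88 ± 0.31 (adjusted p = 0.096).

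In 14-17 h, against 11-14 h, the receptors made up all the calls. The genes called higher were 4 of the 8, nAChRalpha1 (1.76 ± 0.45, adjusted p = 0.034), mAChR-A (1.55 ± 0.40, adjusted p = 0.034), nAChRalpha3 (1.37 ± 0.31, adjusted p = 0.020) and nAChRbeta1 (1.33 ± 0.34, adjusted p = 0.035), while 3.19% of all genes were called higher and 0.856% lower (261 and 70 genes, or 315 and 37 with TMM scaling). Mean levels were 9.51 RPM in 14-17 h and 2.36 RPM in 11-14 h for nAChRalpha1, and 12.2 RPM in 14-17 h and 3.45 RPM in 11-14 h for mAChR-A. These 4 calls are fragile, because all 4 were lost without any 1 of the libraries of 11-12 h, 12-13 h, 15-16 h and 16-17 h, and in edgeR's test of the recovered reads, in which 1 gene of all 8182 was called higher. Without 13-14 h or 14-15 h, nAChRbeta1 alone lost its call (adjusted p of 0.050 and 0.052), and nAChRbeta2 gained one (0.037 and 0.032). In these 2 fits, 404 and 334 of all genes were called higher. DESeq2 called 3 of the 8 genes higher, without nAChRalpha1 (adjusted p = 0.061), and 374 of all genes. The enzymes showed smaller differences at this step, 0.60 ± 0.46 for Ace and 0.54 ± 0.47 for ChAT, neither past the threshold. nAChRbeta2 had 3.34 RPM in 14-17 h and 0.589 RPM in 11-14 h (1.46 ± 0.52, adjusted p = 0.12).

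None of the 8 genes was called in either direction at the last 2 steps. In 17-20 h, against 14-17 h, 4.44% of all genes tested were called higher and 16.1% lower, with a median log2 difference of -0.62 over all genes. On RPM as deposited that is 363 genes higher and 1314 lower, and with TMM scaling 559 higher and 166 lower. Against that shift, mAChR-A stood at 1.06 ± 0.40 (adjusted p = 0.062), nAChRalpha3 at 0.79 ± 0.31 (adjusted p = 0.077) and ChAT at -0.69 ± 0.47 (adjusted p = 0.29), and at an unadjusted p under 0.05 only mAChR-A and nAChRalpha3 passed. With TMM scaling these 2 receptors were called higher, by 1.69 and 1.43, and ChAT stood at -0.04. In 20-23 h, against 17-20 h, 0.428% of all genes were called higher and 0.159% lower, and the differences of the 8 genes lay between -0.59 (mAChR-A) and 0.50 (ChAT), none with an unadjusted p under 0.05 by limma and none called by edgeR or DESeq2. Over the first 3 steps the median log2 difference of the 8 genes was 0.75, 1.20 and 1.35, with 0.04, -0.01 and -0.15 over all genes, and over the last 2 steps it was 0.39 and -0.03, with -0.62 and -0.16 over all genes.

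**Figure D3:**
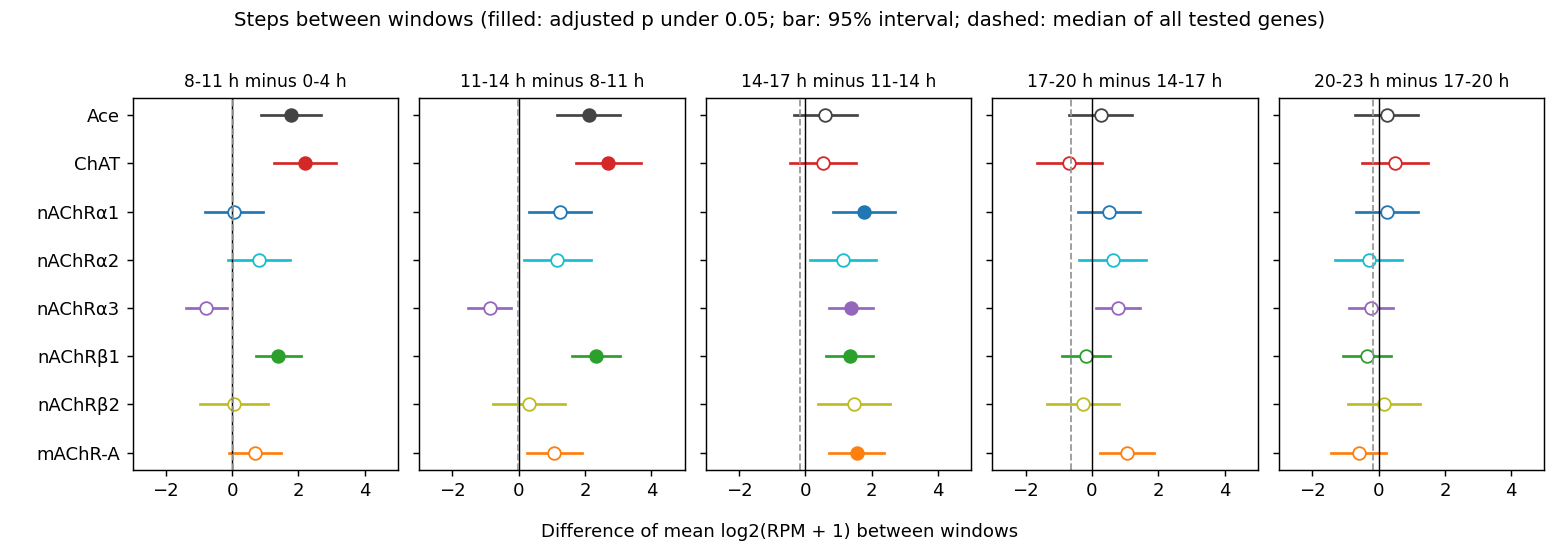
Difference of mean log2(RPM + 1) between consecutive windows (x axis, the later minus the earlier window) for the 8 genes in rows, with 95% intervals of the limma fit. Filled points passed an adjusted p of 0.05, and the dashed line is the median of the 8182 genes tested. ChAT, Ace and nAChRbeta1 are filled at the first 2 steps, and nAChRalpha1, nAChRalpha3, nAChRbeta1 and mAChR-A at the third.

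The approach of each gene to its late level was described, without a test, as a share of its own mean in 17-23 h. In 11-14 h, ChAT had reached 90.8% of that mean, nAChRbeta1 49.2%, Ace 48.4%, nAChRalpha2 34.4%, nAChRbeta2 21.8%, mAChR-A 16.2% and nAChRalpha1 15.9%. The share of nAChRbeta2 rests on 12 reads, all from 13-14 h. nAChRalpha3 was at 23.7% in 11-14 h, below its 75.1% in 0-4 h, where the other 7 genes were at 1.29% to 3.57%. In 14-17 h, ChAT (132%), nAChRbeta1 (126%) and nAChRbeta2 (124%) exceeded their late mean, but with TMM scaling they did not (79.8%, 75.4% and 72.1%). The place of ChAT as the gene nearest to its late mean in 11-14 h held with TMM scaling, at 49.0%, with nAChRbeta1 at 26.1% and Ace at 25.8%.

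**Figure D4:**
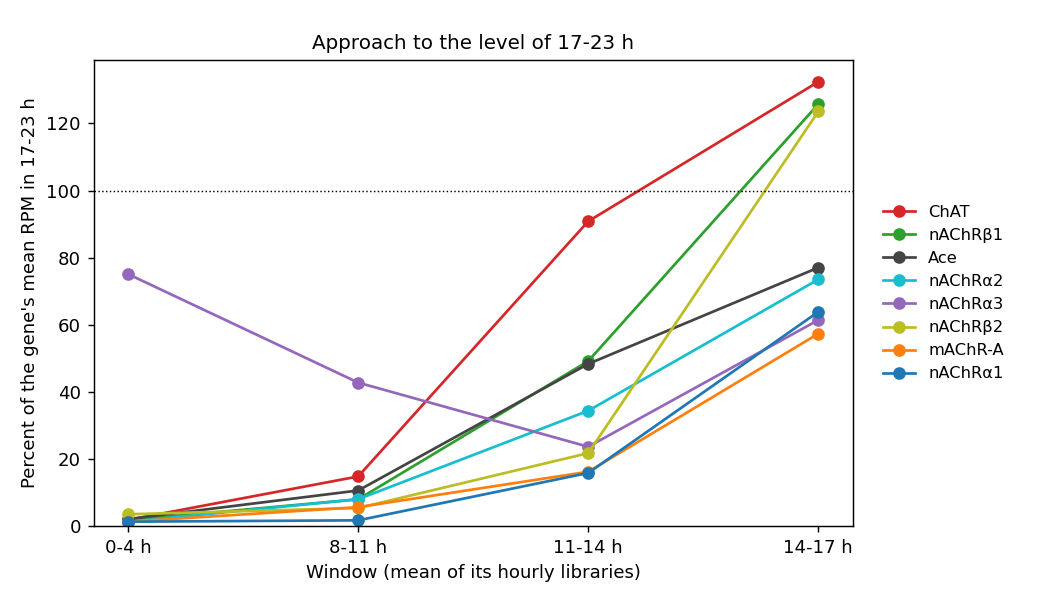
Mean RPM of each gene in 4 windows (x axis) as a percentage of its mean in 17-23 h (y axis, dotted line at 100%). ChAT is at 90.8% in 11-14 h, while nAChRalpha3 moves from 75.1% in 0-4 h to 23.7% in 11-14 h. With TMM scaling all values of 14-17 h are below 100%.

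Ratios within a library do not depend on its total or on scaling, so the make-up of the nicotinic receptor reads was followed by hour. The reads of the 5 nAChR genes of the set were summed, and other nicotinic subunits were not included. In 0-4 h, nAChRalpha3 held 96.9% of these reads (1151 of 1188, interval 95.7% to 97.7%) and nAChRbeta1 2.02%. In 8-11 h, nAChRalpha3 held 78.9% (range over the 3 libraries 76.1% to 83.2%) and nAChRbeta1 15.0% (11.6% to 16.2%). In 11-14 h, against 8-11 h, the order of the pair had turned, with 49.9% (43.5% to 71.8%) for nAChRbeta1 and 31.0% (23.3% to 33.9%) for nAChRalpha3. The turn fell between 2 neighbouring libraries, since nAChRbeta1 held 71.8% of 103 reads at 11-12 h and 11.6% of 95 reads at 10-11 h.

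After that the pair came closer together. nAChRbeta1 held 53.3% in 14-17 h, 38.5% in 17-20 h and 35.5% in 20-23 h, and nAChRalpha3 26.0%, 37.0% and 38.7% in the same windows. In 20-23 h the counting intervals of the pair overlapped (35.5% to 42.0% for nAChRalpha3 and 32.3% to 38.7% for nAChRbeta1). By hour, nAChRalpha3 held more than nAChRbeta1 at 17-18 h (49.8% and 32.7%), 21-22 h (39.6% and 34.3%) and 22-23 h (42.9% and 29.4%), and less in the other libraries from 11-12 h on. nAChRalpha1 had 7.55% in 11-14 h, 8.25% in 14-17 h, 11.3% in 17-20 h and 13.1% (12.1% to 15.9%) in 20-23 h. nAChRalpha2 stayed between 8.83% and 11.5% in these windows and nAChRbeta2 between 1.57% and 3.67%. The summed reads of 11-14 h are mostly those of the deep library of 13-14 h, and as means over its 3 libraries nAChRalpha1 had 4.99% and nAChRbeta2 1.10%, all 12 reads of nAChRbeta2 being from 13-14 h. These shares are descriptions, chosen after the values of the genes had been seen, and were not tested between windows.

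**Figure D5:**
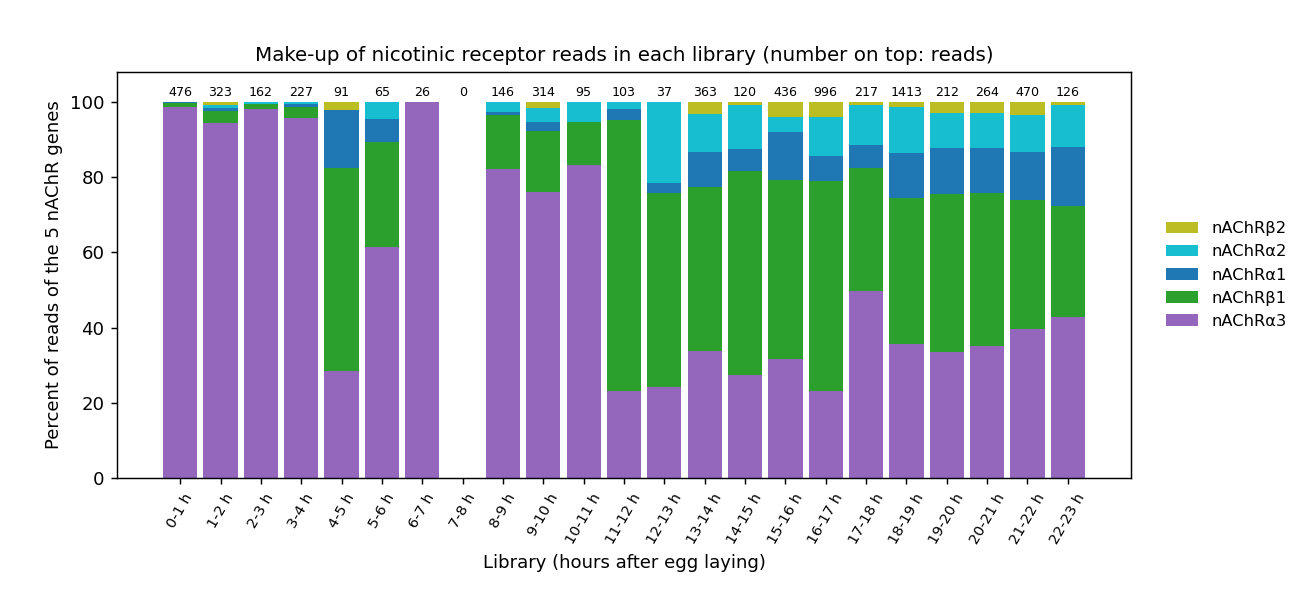
Percentage of the reads of the 5 nAChR genes that each contributed (y axis) in each hourly library (x axis), with the number of reads above each bar and no bar at 7-8 h, where there were 0 reads. nAChRalpha3 holds 76.1% or more in each library of 8-11 h, and nAChRbeta1 43.5% or more in each library of 11-14 h.

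The reads of ChAT over those of Ace, again within a library and chosen after the values were seen, differed between the middle and the last hours. The ratio was 0.917, 0.933 and 1.48 in the 3 libraries of 8-11 h, 1.70, 1.86 and 1.41 in 11-14 h, and 2.74, 1.28 and 1.10 in 14-17 h. It was 1.55, 0.600 and 0.555 in 17-20 h and 1.16, 0.814 and 0.928 in 20-23 h. ChAT thus had more reads than Ace in each of the 8 libraries from 10-11 h to 17-18 h, and fewer in 4 of the 5 after them. Counting intervals lay wholly above 1 in 6 of those 8 libraries, and wholly below 1 at 18-19 h, 19-20 h and 21-22 h.

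Each gene was tied to its promoter through the TSC table, by looking for TSCs whose reads matched those of the gene in all 23 libraries. This route was chosen after the data had been seen. For 5 genes (ChAT, nAChRalpha1, nAChRalpha2, nAChRbeta1 and nAChRbeta2) exactly 1 TSC, or group of TSCs of 1 *D. erecta* gene, had identical reads in every library. For Ace, nAChRalpha3 and mAChR-A the nearest TSC differed by 2.78%, 2.58% and 0.139% of the gene's reads, and for each of the 8 genes the next nearest differed by 17.6% or more. This matched 9 TSCs in all, 2 for ChAT and 1 for each other gene, and left 92 reads of Ace outside its matched TSC. In the deposited table, 5 of the 8 genes had a TSC with no *D. erecta* gene assigned to it.

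Positions are those of release 1.3 of the genome, where scaffold 4770 carries both enzymes, with Ace at scaffold 4770, 12565247 to 12565317, on the plus strand. The main TSC of ChAT lies at 7102208 to 7102267 of scaffold 4770 on the minus strand and held 92.2% of its reads (3044 of 3300, interval 91.3% to 93.1%). The second TSC of ChAT, at 7101999 to 7102017, lies downstream of it. The main TSC held 97.0% (interval 95.1% to 98.2%) of ChAT reads in 20-23 h, and 87.2% to 92.6% in the 4 earlier windows from 8-11 h on, so the second TSC was a minor one at all hours with enough reads.

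nAChRalpha1, nAChRalpha2 and nAChRbeta2 lie together on scaffold 4820. The TSC of nAChRbeta2 spans 7718668 to 7718674 on the plus strand, that of nAChRalpha2 7747718 to 7747759 on the minus strand and that of nAChRalpha1 7776336 to 7776430 on the plus strand. Their outer starts are 29091 and 28577 bp apart, and 0 other TSCs were listed between them. The 3 neighbours had onsets within 1 h of each other by the 10% rule, at 12-13 h (nAChRalpha2) and 13-14 h, although the ranges of all 3 span 2 h or more. In *D. melanogaster* the same 3 subunit genes are also neighbours.

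nAChRbeta1 has its TSC on scaffold 4784, 7138159 to 7138217, plus strand, and mAChR-A on scaffold 4845, 21635979 to 21635999, minus strand. That of nAChRalpha3 lies on scaffold 4690, 10627231 to 10627433, minus strand, and with 203 bp is the widest of the 9. It had reads both in 0-4 h and late. Of the 9 TSCs, 7 held at least 60% of their summed RPM in 8 consecutive libraries and reached 10 RPM or more, the study's criteria for a developmentally regulated promoter. That is 7 of the 8 that reached 10 RPM (87.5%), while 49.8% of all 11536 TSCs that did so met the criteria. That of nAChRalpha3 held 52.4% and that of nAChRbeta2 had a maximum of 4.66 RPM.

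Likeness of profiles was described by Pearson's r of log2(RPM + 1) over the same 20 libraries, which share depth and scaling, so that genes with a late rise are alike by that alone. Among the 8 genes, Ace and nAChRbeta1 (r = 0.97), Ace and ChAT (r = 0.96) and ChAT and nAChRbeta1 (r = 0.96) were most alike, followed by nAChRalpha1 and mAChR-A (r = 0.95). nAChRalpha3 had r of 0.02 to 0.50 with the other 7. For none of the 8 was another gene of the set among the 3 nearest of the 8364 compared. The nearest to ChAT was FBgn0027491 (r = 0.99) and the nearest to nAChRalpha3 was FBgn0036769 (r = 0.84), both listed without a name.

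The library of 4-5 h held transcripts of 6 of the 8 genes above both flanking libraries, as did 38.0% of all genes in the table. ChAT had 21.0 RPM at 4-5 h, against 1.39 RPM at 3-4 h and 0.767 RPM at 6-7 h, and Ace had 16.9 RPM, against 1.74 and 0 RPM. nAChRbeta1 had 14.3 RPM at 4-5 h, against 1.22 RPM at 3-4 h and 0 RPM at 6-7 h. nAChRalpha3 was low at 4-5 h, with 7.60 RPM (interval 5.18 to 11.1), against 37.8 RPM at 3-4 h and 19.9 RPM at 6-7 h. Of the 91 nAChR reads at 4-5 h, nAChRbeta1 held 53.8%, nAChRalpha3 28.6% and nAChRbeta2 2.20%, within their ranges in the libraries from 11-12 h to 16-17 h. The other subunits lay outside those ranges. nAChRalpha1 held 15.4%, above its highest share there (12.6% at 15-16 h), and nAChRalpha2 0%, below its lowest (1.94% at 11-12 h). At 3-4 h nAChRalpha3 held 95.6%. At 5-6 h the values were 9.83 RPM for nAChRbeta1, 6.56 RPM for ChAT, 6.01 RPM for Ace, 2.19 RPM each for nAChRalpha1 and mAChR-A, 1.64 RPM for nAChRalpha2 and 0 RPM for nAChRbeta2, all but the last above those of 3-4 h and 6-7 h. nAChRalpha3 had 21.9 RPM at 5-6 h. What sets these libraries apart was not tested.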

How the data were processed

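RAMPAGE libraries of 23 hourly samples of whole *D. erecta* embryos were used. The authors mapped read pairs with STAR to FlyBase release 1.3, called TSCs on the pooled reads of the series with their own caller, and deposited gene and TSC tables in RPM (reads scaled to the library total), so that the RPM values of the gene table come from TSCs assigned to *D. melanogaster* genes by orthology. The positions (start and end) in the deposited TSC list were read as given, and its score was not used. A further gene table of scores, smoothed and standardized per gene by the authors, was not used here.

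Whole reads were recovered: 100% of the 185320 values above 0 in the gene table, and of the 379172 in the TSC table, were whole multiples of 1 read within 0.02 reads. Tests used limma 3.58.1 (trend option) in R 4.3.3 on log2(RPM + 1), which understates changes of low genes, after filterByExpr of edgeR 4.0.16 with a minimum count of 10, with Benjamini-Hochberg adjustment over all genes tested and a threshold of 0.05. All tests were two-sided moderated tests. edgeR's quasi-likelihood test and DESeq2 1.42.0 on the recovered reads, TMM factors, pseudocounts of 0.1 and 5, other filters, spline degrees of freedom and left-out libraries were alternatives. On the recovered reads, edgeR called 6745 genes for change over time. The fitting code was also run on simulated counts, with a step change planted only in genes with more reads than nAChRalpha1, nAChRalpha2 or nAChRbeta2. Nothing on genes as rare as these follows from it, and no outcome is used here. Counting intervals are 95% Wilson intervals (statsmodels 0.14.6, Python 3.11.15), which count each read as independent. Repeated reads of 1 molecule, if any, would make them too narrow. Depth per library is given with the values.

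The 8 genes, and all lists and rules, were chosen with earlier results of these data known. The genes named are the 8 of the set, plus genes of the most similar profile. The gene table lists identifiers without names, so lists of other cholinergic, GABA, glutamate, monoamine and cell type marker genes could not be matched and were not used here, and no sequence is shown. p-values measure the spread between hourly libraries, since no hour has a replicate.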

Additional observations from a re-analysis of the deposited data

Results flagged for a closer look

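The library of 4-5 h belongs to none of the windows compared, and in it 6 of the 8 genes were above both flanking libraries (3-4 h and 6-7 h). ChAT stood at 21.0 RPM, Ace at 16.9 RPM, nAChRbeta1 at 14.3 RPM, nAChRalpha1 and mAChR-A each at 4.09 RPM and nAChRbeta2 at 0.584 RPM, which is 2 reads. In the flanking libraries these 6 genes had at most 1.74 RPM at 3-4 h and 0.767 RPM at 6-7 h, where a count of 0 allows 2.30 RPM, more than the value of nAChRbeta2. Relative to their mean in 20-23 h, the 6 genes had 19.0% to 34.3% at 4-5 h. nAChRalpha2 had 0 RPM at 4-5 h and 1.64 RPM (3 reads) at 5-6 h. No explanation was tested.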

How the results depend on the processing

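The count of the 8 genes called for change over time kept within 1.5 times under every alternative, with 7 at a pseudocount of 0.1, where nAChRalpha3 missed the threshold, and 6 at a minimum count of 50, which left out nAChRalpha2 and nAChRbeta2, as it did for the windows. Among all genes, 7109 of 8365 were called at a pseudocount of 0.1 and 5973 of 6547 at a minimum count of 50. The fitted end minus start of nAChRalpha3, -0.23, was 1.04 with TMM factors, 1.40 with edgeR, 1.86 with DESeq2 and 0.18 without 7-8 h, and ran from -0.37 to 0.18 over the leave-one-out fits. With 4-5 h, 5-6 h and 7-8 h all left out, an alternative chosen after seeing the data, all 8 genes were called, as were 7664 of all 8382 genes tested.

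For 8-11 h against 0-4 h, where 3 genes were called higher, 1 was at a pseudocount of 5 and 5 with edgeR or DESeq2, which also called nAChRalpha3 lower (-0.86 and -0.87). Genes called higher among all 8182 were 1168 by limma, 1019 at a pseudocount of 5, 1244 with edgeR and 1408 with DESeq2. For 11-14 h against 8-11 h, DESeq2 called 5 in place of 3, with 768 of all genes higher in place of 503. Over the leave-one-out fits 2 to 4 were called, with 197 of all genes higher without 8-9 h and 554 without 11-12 h. For 14-17 h against 11-14 h, where 4 were called, 0 were at an adjusted p under 0.01, at a pseudocount of 0.1 or with edgeR, and 0 to 4 over the leave-one-out fits. Over all genes, those called higher or lower at this step were 331 by limma, 18 at a pseudocount of 0.1, 2 with edgeR and 426 with DESeq2. At an adjusted p under 0.01 they were 23 by limma, and over the leave-one-out fits 17 (without 11-12 h) to 499 (without 13-14 h). For 17-20 h against 14-17 h, where 0 were called, 1 was at a pseudocount of 5 (mAChR-A) and with edgeR (nAChRalpha3), and 2 with TMM factors or DESeq2. Genes called higher among all tested were 363 by limma, 423 at a pseudocount of 5, 337 with edgeR, 559 with TMM factors and 581 with DESeq2. ChAT turned at that step to 0.071 with DESeq2. Of the 40 differences between windows, 13 were never called and under 0.5 in size, and 10 of these changed sign under some alternative. The cause of these shifts was not tested.

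Onset hours outside their counting range are given as the start of the library. At 25% of the maximum, ChAT moved to 11 h and mAChR-A to 14 h. At 50%, on RPM as deposited, onsets were 11 h (ChAT), 14 h (nAChRbeta1), 15 h (mAChR-A), 16 h (nAChRalpha2), 17 h (nAChRalpha3) and 18 h (Ace, nAChRalpha1). At 2 RPM, ChAT, Ace and nAChRbeta1 moved to 8 h, and with a running mean over 3 libraries ChAT moved to 9 h and nAChRbeta1 to 10 h. Leaving out 1 library gave 10 h to 11 h for ChAT, 11 h to 12 h for nAChRbeta1, 12 h to 13 h for nAChRalpha2 and 13 h to 14 h for nAChRalpha1, the later hour when the library of onset was the one left out. Without 4-5 h and 5-6 h, the main TSC of ChAT held 92.1% of its reads. Taken as the mean over libraries, 4 of 30 subunit shares lay outside the interval of the summed reads, nAChRbeta1 (55.6%), nAChRalpha1 (4.99%) and nAChRbeta2 (1.10%) in 11-14 h and nAChRalpha3 (39.6%) in 17-20 h. No paired analysis was possible because no hour has a second sample. Depth limits nAChRbeta2 most, with 133 reads in all.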
